A study of Mus musculus with 4 samples.

Results

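The genes described here belong to the integrated stress response and to the amino acid supply that it controls: 8 stress factors and regulators, 7 amino acid transporters, 8 enzymes of serine synthesis and one-carbon metabolism, and 15 cytosolic aminoacyl-tRNA synthetases. All 38 listed genes were present among the 24421 gene columns of every table. They were followed in plasma cells of mice with VQ-D2 myeloma and of wild-type mice, sorted as CD138+ B220- and profiled one cell at a time by 3′ sequencing with unique molecular identifiers (UMIs, each counting 1 captured transcript). VQ marrow had 2 libraries, replicates 1 and 2. The VQ lymph node and wild-type marrow had 1 library each. Per the labels, VQ cells are donor-derived plasma cells of the genotype V{kappa}*MYC, Nras LSL Q61R/+ and IgG1-Cre that were taken from recipient animals with multiple myeloma. The wild-type cells came from age-matched control marrow. All animals were on the C57/BL6 background, and the labels give neither an age nor a treatment. In this model the MYC transgene is driven by kappa light chain elements, and the Nras allele is switched on where IgG1-Cre has been active, so both alterations sit in B-lineage cells. The labels do not say whether the VQ marrow pair or the lymph node came from separate animals. In comparisons among VQ marrow, the VQ lymph node and wild-type marrow, p-values therefore measure only the spread between the VQ marrow libraries, which may be technical.

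The integrated stress response begins when kinases that sense amino acid shortage, unfolded protein or other strain phosphorylate the translation factor eIF2. General translation slows, while the mRNA of the transcription factor ATF4 is translated more, and ATF4 then raises genes for amino acid uptake, serine synthesis and tRNA charging. ATF5 and CHOP (gene Ddit3) act beside it, and GADD34 (gene Ppp1r15a) brings the phosphatase that reverses the step. Plasma cells secrete antibody at a high rate and are known for high ER load. UMIs count mRNA and do not measure how much ATF4 protein is made.

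Cells were chosen by the share of their UMIs that came from Jchain, the gene of the antibody joining chain. VQ cells were kept where Jchain was under 5% of UMIs and wild-type cells where it was at least 5%. This kept 226 of 245 cells in VQ marrow replicate 1, 170 of 188 in replicate 2, 185 of 185 in the VQ lymph node and 106 of 163 in wild-type marrow. Few cells lay near that limit: 3, 2 and 0 VQ cells and 5 wild-type cells had a Jchain share between 4% and 6%. The highest share kept in VQ cells was 4.54% and the lowest kept in wild-type cells 5.51%. No cell barcode was shared between libraries. Summed without Jchain, the kept cells held 1039024, 441973 and 799731 UMIs in the VQ libraries and 162471 in wild-type marrow, with a median of 4682, 2625.5, 3937 and 1647.5 UMIs per cell. Levels are given as CPM, a gene's UMIs per 1000000 UMIs of these sums. The wild-type library is the shallowest, and 0 UMIs in it still allows a level of up to 18.5 CPM (a 1-sided limit of 3 counts, used for every gene at 0; the 2-sided 95% interval drawn in the plots ends at 22.7 CPM). In this and every other interval and limit, only counting error is covered. A lower CPM cannot tell fewer cells with a transcript from less of it per cell.

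The genes that the labels name were checked first. Myc reached 1270 and 1462 CPM in the VQ marrow libraries and 1392 CPM in the VQ lymph node, against 43.1 CPM in wild-type marrow, and whether these UMIs came from the transgene or from the endogenous gene was not tested. Nras stood at 298 and 328 CPM in VQ marrow and 330 CPM in the VQ lymph node, against 105 CPM in wild-type marrow (log2 fold change 1.57, SE 0.32, adjusted p = 9.43e-06 in VQ marrow), with mutant and normal alleles counted together. Sdc1, which encodes the sorted surface protein CD138, was present in all libraries (720 and 652 CPM in VQ marrow, 576 CPM in the VQ lymph node and 1089 CPM in wild-type marrow). The 12 plasma cell markers without Jchain each had UMIs in every library. They summed to 11280 and 12340 CPM in VQ marrow and 12830 CPM in the VQ lymph node, against 35810 CPM in wild-type marrow, a shift that goes the same way as the falls of stress factors and Slc3a2 below and whose part in them was not tested. The markers did not all move alike. Fkbp11 went the other way, with 660, 337 and 838 UMIs in the VQ libraries against 41 in wild-type marrow. Mzb1 had 47 and 23 UMIs in VQ marrow and 1089 in the VQ lymph node, against 971 in wild-type marrow. Markers of other cells were not evenly spread. Summed neutrophil markers stood at 994.2 and 2910 CPM in VQ marrow and 1.25 CPM in the VQ lymph node, against 80.01 CPM in wild-type marrow. Summed B cell precursor markers stood at 0.9624, 2.263 and 1.25 CPM in the VQ libraries against 197 CPM in wild-type marrow, where Rag2 and Igll1 were at 0. Summed T cell markers ranged from 8.753 to 48.12 CPM in the VQ libraries against 30.77 CPM in wild-type marrow, and Cd8a was at 0 in every library. Mature B cell markers summed to 2.887, 4.525 and 0 CPM in the VQ libraries against 166.2 CPM in wild-type marrow, where Cd22, Pax5 and Fcer2a were at 0. Of 7 macrophage and monocyte markers only Cd68 and Ctss had a UMI in wild-type marrow, with a sum of 646.8, 674.2 and 677.7 CPM in the VQ libraries against 2296 CPM. Leaving out cells with at least 3 UMIs of T cell, neutrophil, erythroid or B cell precursor markers gave log2 fold changes in VQ marrow of -3.57 for Slc3a2, -2.42 for Ppp1r15a and -0.78 for Atf4, against -3.55, -2.51 and -0.80 with them.

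ATF4 binds a composite DNA element, shared with C/EBP partners, whose core is read here as TGATGNAA. Windows from 250 bases before to 50 bases after the annotated start were searched on both strands for that core in RefSeq promoters of GRCm38.p6. Of the 38 genes, 31 had an entry there, and Slc7a5, Slc1a5, Wars, Nars, Lars, Vars and Hars had none and were not searched. The core was found in 10 of these 31 (32.3%), and in 1219 of 27025 of all genes (4.51%), each gene counted once if any of its windows held it. It was held by 3 of 8 stress factors, 2 of 5 transporters, 5 of 10 synthetases and 0 of 8 serine and one-carbon enzymes. The E-box CACGTG, a motif bound by MYC with MAX, was in 3 of the 31 (9.68%: Aars, Iars and Tars), against 8.09% of all genes. The 250 bases before the start are shown for Asns, whose element is a textbook amino acid response element, and for Chac1 and Gars. Among the members searched, Gars was the only called member that held the core. For 6 further members 30 bases around the core are shown, since they show how its flanks vary. All read 5′ to 3′ on the gene's strand, and capitals mark the core, either as TGATGNAA or as its reverse complement.
Asns (chr6:7693210-7693459, minus strand): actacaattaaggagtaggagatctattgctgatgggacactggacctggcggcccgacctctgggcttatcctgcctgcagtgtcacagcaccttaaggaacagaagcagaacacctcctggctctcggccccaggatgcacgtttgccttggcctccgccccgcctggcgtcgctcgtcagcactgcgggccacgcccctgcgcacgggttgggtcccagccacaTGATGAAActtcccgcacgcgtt
Chac1 (chr2:119350992-119351241, plus strand): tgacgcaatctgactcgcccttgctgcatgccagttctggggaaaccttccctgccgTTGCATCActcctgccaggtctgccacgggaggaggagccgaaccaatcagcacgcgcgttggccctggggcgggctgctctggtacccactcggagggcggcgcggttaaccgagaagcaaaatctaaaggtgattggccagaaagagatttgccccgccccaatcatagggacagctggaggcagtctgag
Gars (chr6:55037751-55038000, plus strand): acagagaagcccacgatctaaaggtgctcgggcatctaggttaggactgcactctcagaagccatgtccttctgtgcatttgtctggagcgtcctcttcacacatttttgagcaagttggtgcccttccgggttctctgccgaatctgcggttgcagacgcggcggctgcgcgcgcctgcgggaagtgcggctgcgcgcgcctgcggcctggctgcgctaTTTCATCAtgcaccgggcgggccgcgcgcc
Trib3 (chr2:152344028-152344057, minus strand): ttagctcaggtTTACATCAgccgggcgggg
Slc7a11 (chr3:50443661-50443690, minus strand): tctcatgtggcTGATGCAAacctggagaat
Slc1a4 (chr11:20332699-20332728, minus strand): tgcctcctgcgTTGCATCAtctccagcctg
Iars (chr13:49682126-49682155, plus strand): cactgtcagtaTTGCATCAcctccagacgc
Yars (chr4:129189895-129189924, plus strand): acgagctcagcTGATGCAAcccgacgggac
Tars (chr15:11399655-11399684, minus strand): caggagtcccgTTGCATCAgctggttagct

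The core lay 23 bases before the start in Asns, 30 in Gars and 193 in Chac1. A match is a description of these letters and not of binding.

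In VQ marrow, 4 of 6 tested stress factors were lower than in wild-type plasma cells and 6 of 8 serine and one-carbon enzymes were higher. Of the 35 members that passed the filter on low counts, 12 rose and 5 fell in VQ marrow at a Benjamini-Hochberg adjusted p under 0.05 over all 8414 genes tested (edgeR quasi-likelihood test). Each SE was derived from the F statistic of that test and its fold change. Over all genes, 17.7% were called higher and 12% lower in the same comparison. The 5 that fell were Atf4, Atf5, Ddit3, Ppp1r15a and Slc3a2. The 12 that rose were 6 serine and one-carbon enzymes, 4 synthetases and the transporters Slc7a5 and Slc7a1. Trib3, Sesn2 and Slc7a11 had 5 UMIs at most in any library and were not tested. The median log2 fold change was -1.39 for 6 stress factors, 1.56 for 8 serine and one-carbon enzymes and 0.21 for 15 synthetases, beside 0.22 for all genes. For 6 transporters it was 0.76, or 0.33 with Slc1a4, at 0 UMIs in wild-type marrow, set to its bound. If totals were taken with Jchain included, the median of all genes moved to 0.564, so every member's value moves up by a similar amount under that scaling.

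**Figure D1:**
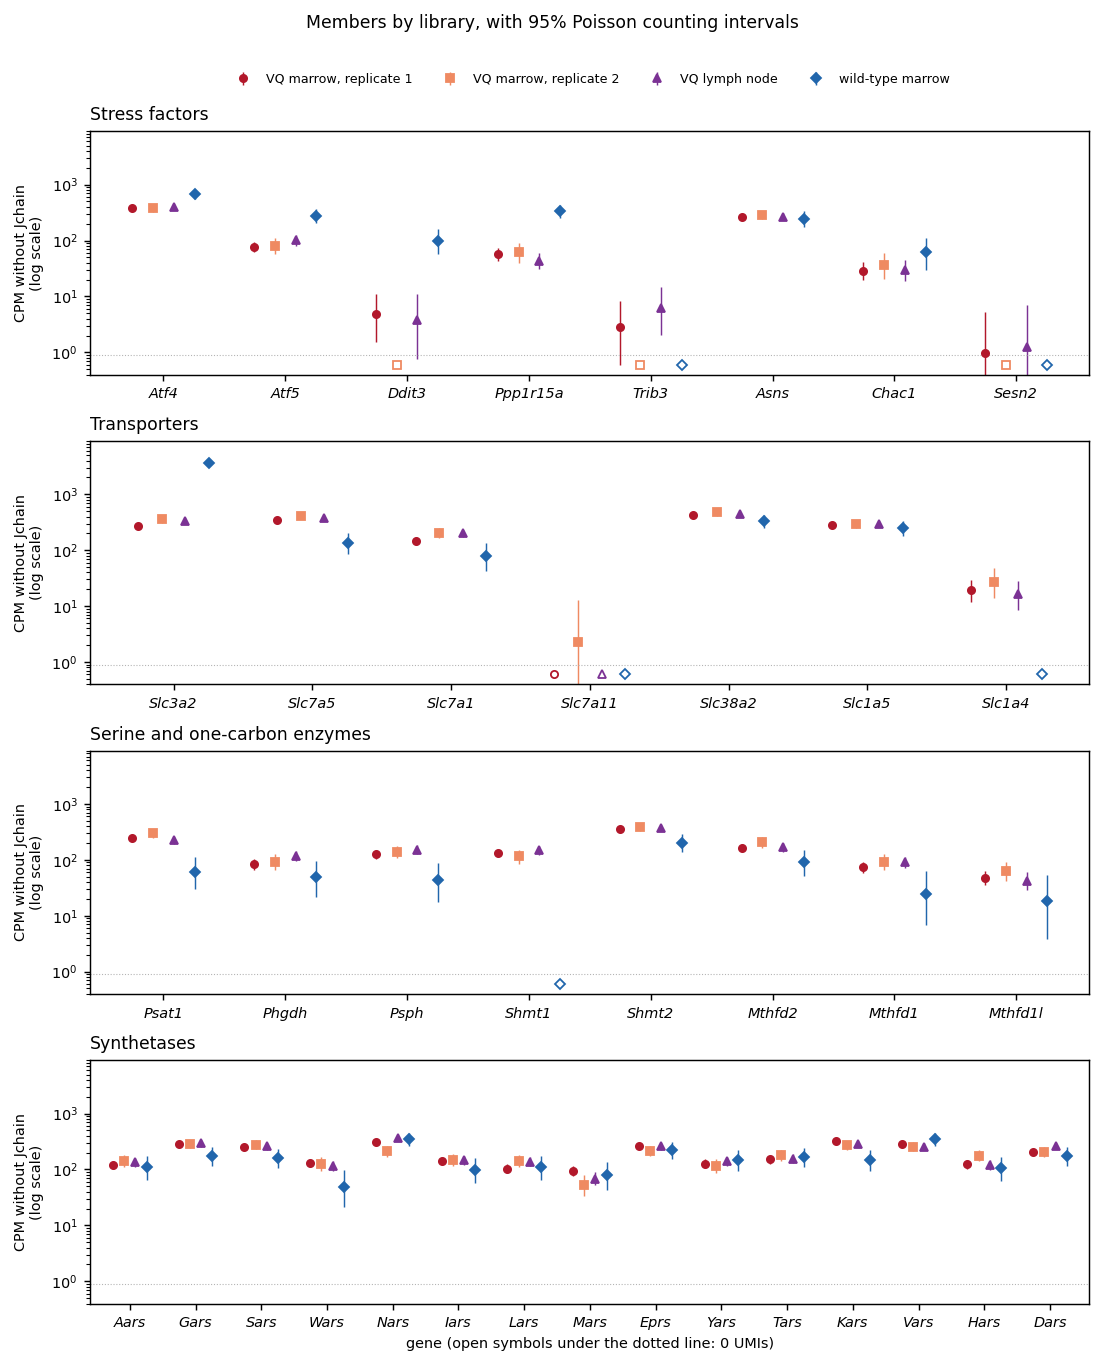
Level of each of the 38 genes in CPM without Jchain (log scale) in the 2 VQ marrow libraries, the VQ lymph node and wild-type marrow, by role, with 95% Poisson counting intervals; open symbols under the dotted line mark 0 UMIs. Slc3a2 stands at 3594 CPM in wild-type marrow against 271 to 355 CPM in the VQ libraries, and Shmt1 is at 0 UMIs in wild-type marrow.

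Among the stress factors, 4 of 6 tested fell in VQ marrow and 0 rose (4 at an unadjusted p under 0.05, and 2 called by DESeq2). DESeq2 gave no adjusted p for 2 of the 6. Ppp1r15a, the phosphatase subunit that ends eIF2 phosphorylation, had 56.8 and 61.1 CPM in VQ marrow and 43.8 CPM in the VQ lymph node, against 332 CPM in wild-type marrow. The 3 VQ libraries lay close together and far below wild type. The 54 wild-type UMIs of Ppp1r15a came from 29 of 106 cells. The highest cell had 12, and the 11 cells with the most held 66.7%. The log2 fold change was -2.51 (SE 0.30, adjusted p = 2.09e-15) in VQ marrow and -2.92 (SE 0.34, adjusted p = 1.17e-15) in the lymph node, which as a ratio of UMIs was 5.72-fold lower in VQ marrow (95% counting interval 4 to 8.14).

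Ddit3, which encodes the pro-apoptotic factor CHOP, was almost absent from the VQ libraries, with 5, 0 and 3 UMIs (4.81, 0 and 3.75 CPM), against 16 UMIs (98.5 CPM) in wild-type marrow. It was 29.2-fold lower in VQ marrow (counting interval 10.2 to 102, log2 fold change -4.81, SE 0.84, adjusted p = 1.89e-07) and 26.3-fold lower in the lymph node (adjusted p = 1.22e-05). Its 3′ end shares bases with that of Mars on the other strand, and no source used here says whether reads were counted by strand. The 16 wild-type UMIs came from 13 of 106 cells.

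Atf5, a factor translated in the same way as Atf4, stood at 77 and 81.5 CPM in VQ marrow and 101 CPM in the VQ lymph node, against 277 CPM in wild-type marrow. Each VQ library was below the single wild-type library in CPM, and the log2 fold change was -1.82 (SE 0.29, adjusted p = 1.29e-08) in VQ marrow and -1.45 (SE 0.31, adjusted p = 2.79e-05) in the lymph node. Atf4 itself, the central factor of the response, had 386 and 385 CPM in VQ marrow and 400 CPM in the VQ lymph node, against 671 CPM in wild-type marrow. It was 1.74-fold lower in VQ marrow (counting interval 1.4 to 2.14, log2 fold change -0.80, SE 0.20, adjusted p = 0.000428) and 1.68-fold lower in the lymph node (adjusted p = 0.00419).

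These 2 falls depend on the scale. Counted as UMIs per cell, Atf4 averaged 1.77 and 1 in VQ marrow and 1.73 in the VQ lymph node, against 1.03 in wild-type marrow, so only VQ marrow replicate 2 was below wild type. Atf5 averaged 0.354, 0.212 and 0.438 UMIs per cell in the VQ libraries against 0.425 in wild-type marrow. Ppp1r15a, at 0.261, 0.159 and 0.189 against 0.509, and Ddit3, at 0.0221, 0 and 0.0162 against 0.151, were lower per cell in all 3 VQ libraries. Atf4 also lost its call where all cells were used (log2 fold change -0.40, adjusted p = 0.119) and where mitotic cells were left out (-0.71, adjusted p = 0.0937).

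Asns, the asparagine synthetase whose promoter is shown above, was not called. It had 269 and 287 CPM in VQ marrow and 269 CPM in the VQ lymph node, against 246 CPM in wild-type marrow, a 1.12-fold difference (counting interval 0.806 to 1.59, adjusted p = 0.658). Per cell it averaged 1.24, 0.747 and 1.16 UMIs in the VQ libraries against 0.377 in wild-type marrow. Chac1, which degrades glutathione, had 28.9 and 36.2 CPM in VQ marrow and 30 CPM in the VQ lymph node, against 61.5 CPM in wild-type marrow (log2 fold change -0.97, SE 0.57, adjusted p = 0.195), and 0.133, 0.0941 and 0.13 UMIs per cell in the VQ libraries against 0.0943. Trib3, a pseudokinase that restrains ATF4, had 3, 0 and 5 UMIs in the VQ libraries and 0 in wild-type marrow. Sesn2, a brake on mTORC1, had 1, 0 and 1 UMIs against 0. No fold is given for these last 2 genes, since 0 wild-type UMIs allow 18.5 CPM.

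Most immediate early and heat shock genes moved with the stress factors. Of 15 immediate early and heat shock genes, 12 fell in VQ marrow and 0 rose, where 12% of all genes were called lower. In the lymph node 12 of the 15 fell and 2 rose, where 11.9% and 16.2% of all genes were called lower and higher. The summed level of the 15 genes was 2217, 2396 and 2172 CPM in the VQ libraries against 8740 CPM in wild-type marrow. The largest falls were in Hspa1a (4.81 and 0 CPM in VQ marrow against 320 CPM in wild-type marrow), Hspa1b (10.6 and 11.3 against 659 CPM) and Fosb (32.7 and 54.3 against 480 CPM). Cells that held at least 3 UMIs of Hspa1a and Hspa1b together, of which wild-type marrow had 20, were then left out. The log2 fold change in VQ marrow was -2.40 for Ppp1r15a, -0.83 for Atf4 and -3.54 for Slc3a2, each still called. Shmt2, Mthfd1, Gars and Sars lost their call in VQ marrow without these cells. In the 86 wild-type cells outside that group Ppp1r15a stood at 309 CPM (counting interval 222 to 419) and Ddit3 at 113 CPM (63.3 to 186). Fosb and the other immediate early genes were not used to leave out cells, and their part in the result was not tested.

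Among the transporters, 2 of 6 tested rose and 1 fell in VQ marrow, where 17.7% and 12% of all genes were called higher and lower. Nothing particular to the transporters is read from these counts. The fall was that of Slc3a2, the CD98 heavy chain that escorts several amino acid exchangers, Slc7a5 and Slc7a11 among them, to the cell surface. It had 271 and 355 CPM in VQ marrow and 336 CPM in the VQ lymph node, against 3594 CPM in wild-type marrow. Every VQ library was more than an order of magnitude below wild type. The difference was 12.1-fold in VQ marrow (counting interval 10.7 to 13.8, log2 fold change -3.55, SE 0.15, adjusted p = 6.57e-110) and 10.7-fold in the lymph node (adjusted p = 2.69e-67).

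Slc3a2 was spread over most wild-type cells: 90 of 106 had a UMI, the highest cell had 50, and the 11 cells with the most held 39.9% of its 584 UMIs. Per cell it averaged 1.25, 0.924 and 1.45 UMIs in the VQ libraries against 5.51 in wild-type marrow. Wild-type cells with a UMI of the MHC class II genes H2-Aa, H2-Ab1 or H2-Eb1 had 3041 CPM (69 cells) and those without had 5008 CPM (37 cells), both above every VQ library. Where all cells were used whatever their Jchain share, the log2 fold change was -2.68 (adjusted p = 0.000619). Slc3a2 held 584 of the 713 transporter UMIs of wild-type marrow, so the summed transporter level was 1496, 1776 and 1666 CPM in the VQ libraries against 4388 CPM in wild-type marrow with it, and 1224, 1421 and 1329 CPM against 794 CPM without it.

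The light chain that Slc3a2 escorts for leucine and other large neutral amino acids, Slc7a5 (LAT1), moved the other way. It had 346 and 414 CPM in VQ marrow and 381 CPM in the VQ lymph node, against 135 CPM in wild-type marrow. It rose 2.71-fold in VQ marrow (counting interval 1.77 to 4.36, log2 fold change 1.47, SE 0.29, adjusted p = 5.06e-06) and 2.82-fold in the lymph node (adjusted p = 1.4e-05). Slc7a1, a carrier of arginine and lysine, had 147 and 204 CPM in VQ marrow and 199 CPM in the VQ lymph node, against 80 CPM in wild-type marrow. Its log2 fold change was 1.08 (SE 0.37, adjusted p = 0.0205) in VQ marrow and 1.31 (SE 0.38, adjusted p = 0.00376) in the lymph node.

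The remaining transporters were not called. Slc38a2, a carrier of small neutral amino acids, had 425 and 480 CPM in VQ marrow and 435 CPM in the VQ lymph node, against 332 CPM in wild-type marrow (adjusted p = 0.139 in VQ marrow). The glutamine carrier Slc1a5 had 286, 294 and 298 CPM in the VQ libraries against 246 CPM in wild-type marrow (adjusted p = 0.524). Slc1a4, which carries serine and alanine, had 19.2, 27.2 and 16.3 CPM in the VQ libraries and 0 UMIs in wild-type marrow and was not called (adjusted p = 0.0543 in VQ marrow). Slc7a11, the cystine carrier, had a single UMI in the 4 libraries together.

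The serine and one-carbon enzymes were the role with the most members called. In VQ marrow 6 of 8 rose and 0 fell (7 at an unadjusted p under 0.05, and 2 called by DESeq2, which gave no adjusted p for 1). In the lymph node 6 of 8 rose as well. Their summed level was 1224 and 1391 CPM in VQ marrow and 1309 CPM in the VQ lymph node, against 492 CPM in wild-type marrow, a ratio of 2.59 for VQ marrow over wild type (counting interval 2.07 to 3.28). All 8 had a positive log2 fold change in both comparisons, which share the wild-type library.

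The 3 enzymes that make serine from a glycolytic intermediate come in the order Phgdh, Psat1, Psph. Psat1, the aminotransferase, had 243 and 296 CPM in VQ marrow and 224 CPM in the VQ lymph node, against 61.5 CPM in wild-type marrow. All VQ libraries were well above wild type, 4.2-fold in VQ marrow (counting interval 2.26 to 8.83, log2 fold change 2.10, SE 0.37, adjusted p = 3.18e-07) and 3.64-fold in the lymph node (adjusted p = 3.87e-05). Psph, the phosphatase of the last step, had 126 and 140 CPM in VQ marrow and 151 CPM in the VQ lymph node, against 43.1 CPM in wild-type marrow (log2 fold change 1.60, SE 0.46, adjusted p = 0.00348 in VQ marrow). Phgdh, the first and committed enzyme, had 83.7 and 92.8 CPM in VQ marrow and 119 CPM in the VQ lymph node, against 49.2 CPM in wild-type marrow. It was called in the lymph node (log2 fold change 1.27, SE 0.47, adjusted p = 0.031) and not in VQ marrow (0.82, SE 0.48, adjusted p = 0.202), and its difference between lymph node and VQ marrow was not called (adjusted p = 0.413).

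Serine is turned into glycine and a one-carbon unit by Shmt1 in the cytosol and Shmt2 in mitochondria. Shmt1 had 132 and 115 CPM in VQ marrow and 148 CPM in the VQ lymph node, and 0 UMIs in wild-type marrow. It was seen in 86 of 226, 35 of 170 and 73 of 185 VQ cells and in 0 of 106 wild-type cells. Against the floor of 3 counts it was at least 6.87-fold higher in VQ marrow (adjusted p = 1.02e-08) and at least 7.99-fold higher in the lymph node (adjusted p = 1.35e-09). Shmt1 shares exon bases with Smcr8 on the other strand. Shmt2 had 353 and 385 CPM in VQ marrow and 368 CPM in the VQ lymph node, against 203 CPM in wild-type marrow, and rose 1.79-fold in VQ marrow (counting interval 1.26 to 2.62, adjusted p = 0.00627).

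The enzymes that convert the one-carbon unit further differed in how firmly they were called. Mthfd2, the mitochondrial dehydrogenase, had 166 and 206 CPM in VQ marrow and 168 CPM in the VQ lymph node, against 92.3 CPM in wild-type marrow (log2 fold change 0.97, SE 0.35, adjusted p = 0.0257 in VQ marrow and adjusted p = 0.0713 in the lymph node). Mthfd1, its cytosolic counterpart with further activities, had 73.1, 92.8 and 90 CPM in the VQ libraries against 24.6 CPM, or 4 UMIs, in wild-type marrow. It rose in VQ marrow (log2 fold change 1.69, SE 0.60, adjusted p = 0.0224) and in the lymph node (1.86, SE 0.61, adjusted p = 0.0114). Mthfd1l, the mitochondrial formate synthetase, had 48.1, 63.4 and 42.5 CPM against 18.5 CPM, or 3 UMIs, a ratio of 2.85 in VQ marrow with a counting interval of 0.941 to 14.1 (adjusted p = 0.0992).

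**Figure D2:**
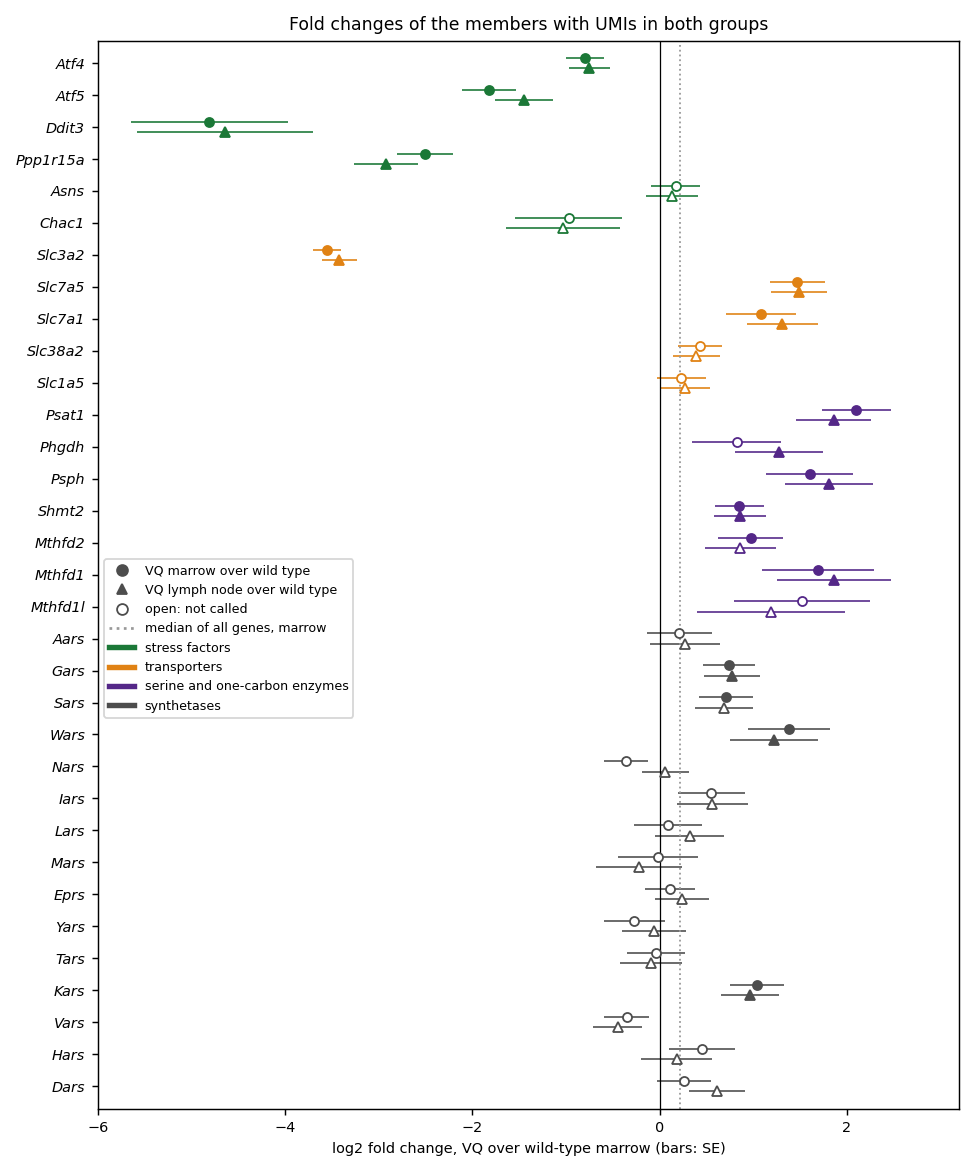
Log2 fold change of VQ marrow (circles) and the VQ lymph node (triangles) over wild-type marrow for the tested members with UMIs in both VQ and wild-type cells, with the SE computed back from the edgeR test; filled symbols are called, open ones are not, and the dotted line is the median of all genes in VQ marrow (0.22). The factors Atf4, Atf5, Ddit3 and Ppp1r15a and the transporter Slc3a2 lie left of 0, and the serine and one-carbon enzymes lie right of it.

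The tRNA synthetases join amino acids to their tRNAs, and most were not called. In VQ marrow 4 of 15 rose and 0 fell (4 at an unadjusted p under 0.05, and 0 called by DESeq2), and in the lymph node 3 of 15 rose and 0 fell (5 at an unadjusted p under 0.05, and 0 by DESeq2). Their summed level was 2923, 2806 and 2999 CPM in the VQ libraries against 2437 CPM in wild-type marrow, a ratio of 1.18 in VQ marrow (counting interval 1.07 to 1.32). The 4 of 15 called higher stand beside 17.7% of all genes, and nothing particular to the synthetases is read from that count. As UMIs per cell, all 15 were above wild type in all 3 VQ libraries, whose cells held more UMIs. Kars averaged 1.51, 0.7 and 1.24 UMIs per cell in the VQ libraries against 0.226 in wild-type marrow, and Vars 1.34, 0.665 and 1.11 against 0.538.

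Kars, for lysine, had 328 and 269 CPM in VQ marrow and 288 CPM in the VQ lymph node, against 148 CPM in wild-type marrow, and rose 2.1-fold in VQ marrow (counting interval 1.4 to 3.32, adjusted p = 0.00235). Wars, for tryptophan, had 130, 127 and 115 CPM in the VQ libraries against 49.2 CPM in wild-type marrow (log2 fold change 1.38, SE 0.44, adjusted p = 0.0095 in VQ marrow). Gars, for glycine, had 288, 290 and 294 CPM against 172 CPM (log2 fold change 0.74, SE 0.28, adjusted p = 0.0311). These 3 were called in both VQ tissues. In the lymph node, Kars kept its call in 9 of 13 alternatives, and Wars and Gars in 3 each. Sars, for serine, had 251, 278 and 259 CPM against 160 CPM and passed narrowly in VQ marrow only (adjusted p = 0.0479, and 0.0764 in the lymph node). It kept its call in 3 of 17 alternatives.

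Of the 11 synthetases not called in VQ marrow, 5 had a negative and 6 a positive log2 fold change, from -0.36 for Nars to 0.55 for Iars. Nars, for asparagine, had 310 and 210 CPM in VQ marrow and 359 CPM in the VQ lymph node, against 345 CPM in wild-type marrow, so the VQ marrow pair differed more from each other than the lymph node did from wild type. Vars, for valine, had 291, 256 and 256 CPM against 351 CPM (adjusted p = 0.276). Of the 5 synthetase genes that held the ATF4 core, Gars was called, and Aars, Iars, Yars and Tars were not, with adjusted p of 0.712, 0.255, 0.573 and 0.943 in VQ marrow. The interval of the Tars ratio ran from 0.642 to 1.49 and that of Aars from 0.705 to 1.98. The signs of Aars, Dars, Eprs, Lars, Mars, Tars and Yars turned under at least 1 alternative.

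No member was called between the lymph node and marrow compartments of the myeloma. Of the 35 members, 0 were higher and 0 lower in the VQ lymph node than in VQ marrow, where 1.68% and 1.34% of all genes were called (1 member at an unadjusted p under 0.05, and 0 by DESeq2, which gave no adjusted p for 4). That member was Nars (log2 fold change 0.42, adjusted p = 0.227). Log2 fold changes ran from -0.42 to 0.45 with a median of 0.02. The count of 0 is near the share of all genes, and nothing particular to the members is read from it. Against wild type, 11 members rose and 5 fell in the lymph node, where 16.2% and 11.9% of all genes were called higher and lower. The 5 that fell were the 5 that fell in VQ marrow, and both comparisons use the single wild-type library. Sars and Mthfd2 were called in VQ marrow and not in the lymph node, and Phgdh the other way round, with no called difference between the 2 tissues.

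A small set of VQ marrow cells had Jchain at or above 5% of UMIs, 19 in replicate 1 and 18 in replicate 2, and none in the lymph node. Their sums were small (17081 and 10597 UMIs without Jchain), so that 1 UMI is worth 58.5 and 94.4 CPM. Myc stood at 234 and 0 CPM in them, against 1270 and 1462 CPM in the Jchain-low cells of the same libraries. The labels call all of these cells donor-derived, and whether they carry the VQ alleles was not tested. In a test within libraries over 4715 genes, 2 of 32 members were higher in Jchain-high cells and 0 lower (1 lower member, Psat1, at an unadjusted p under 0.05, and 0 lower by DESeq2), where 2.8% of all genes were higher and 1.38% lower. DESeq2 gave no adjusted p for 19 of the 32. The p-values of this comparison measure how the difference between Jchain-high and Jchain-low cells varied between the 2 libraries, not the spread between the libraries.

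Slc3a2 had 1639 and 1793 CPM in the Jchain-high cells of replicates 1 and 2, against 271 and 355 CPM in the Jchain-low cells. Both replicates differed in the same direction (log2 fold change 2.48, SE 0.35, adjusted p = 2.36e-10), and the call held in 7 of 7 alternatives. Ppp1r15a had 468 and 283 CPM in Jchain-high cells, resting on 8 and 3 UMIs, against 56.8 and 61.1 CPM in Jchain-low cells (log2 fold change 2.76, SE 0.88, adjusted p = 0.0412), and held in 1 of 7 alternatives. Atf4 had 644 and 849 CPM in Jchain-high cells against 386 and 385 CPM in Jchain-low cells, which was not called (adjusted p = 0.336). Shmt1 had 0 UMIs in both Jchain-high sums, which still allows 176 and 283 CPM, above its level in Jchain-low cells. Psat1 had 58.5 and 0 CPM in Jchain-high cells against 243 and 296 CPM (adjusted p = 0.203). The immediate early and heat shock genes moved here too, with 5 of 11 higher and 0 lower in Jchain-high cells (5 at an unadjusted p under 0.05, and 3 by DESeq2, which gave no adjusted p for 5), and the 12 plasma cell markers without Jchain summed to 26810 and 32930 CPM in them against 11280 and 12340 CPM in Jchain-low cells. The part of either in the result was not tested.

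**Figure D3:**
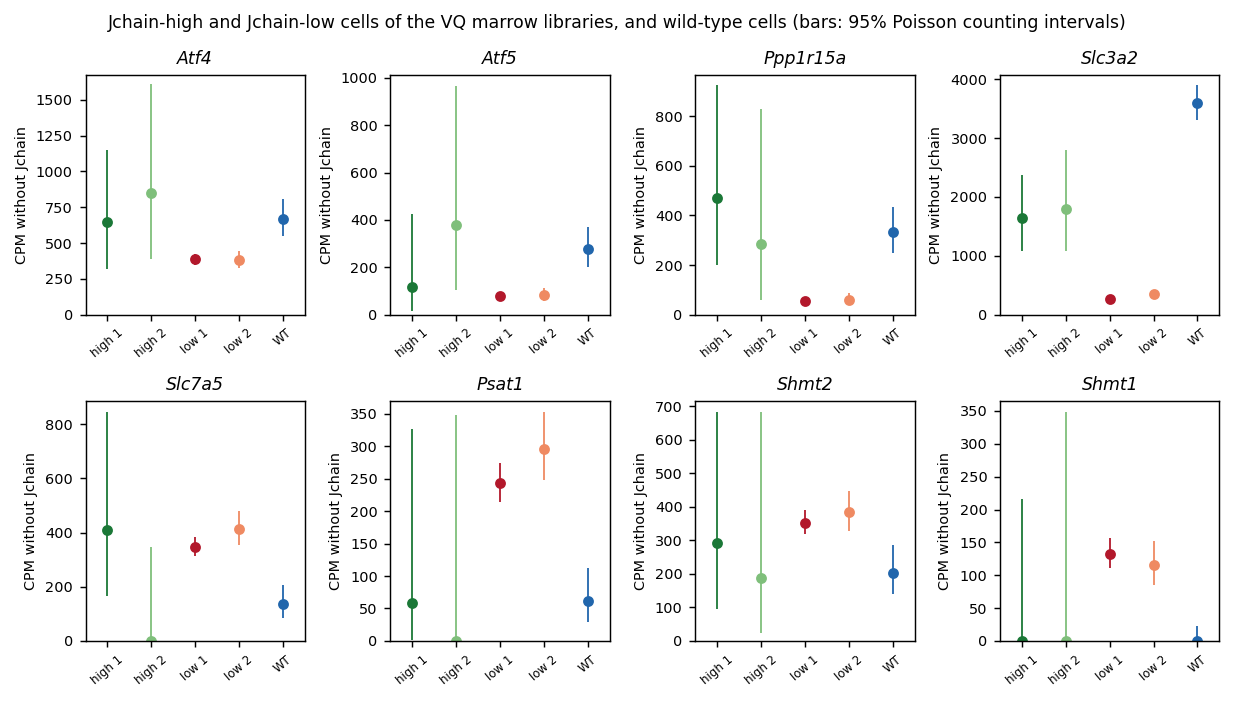
CPM without Jchain, with 95% Poisson counting intervals, of 8 members in the Jchain-high cells of VQ marrow replicates 1 and 2 (high 1, high 2), in the Jchain-low cells of the same libraries (low 1, low 2) and in wild-type marrow (WT); each panel has its own axis from 0. Slc3a2 is at 1639 and 1793 CPM in Jchain-high cells, between the 271 and 355 CPM of Jchain-low cells and the 3594 CPM of wild-type marrow.

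Genes around the members were read from lists of the same pathways. Each count against wild type in these lists stands beside the share of all genes. That share was 17.7% higher and 12% lower in VQ marrow, and 16.2% and 11.9% in the lymph node. Of 34 further genes of eIF2 signalling and ATF4 targets, 23 were tested, and in VQ marrow 7 rose and 0 fell (12 at an unadjusted p under 0.05, and 0 called by DESeq2), with a median log2 fold change of 0.68 beside 0.22 for all genes. DESeq2 gave no adjusted p for 8 of the 23. Cth, which makes cysteine, had 41.4 and 36.2 CPM in VQ marrow and 0 UMIs in wild-type marrow, at least 2.16-fold higher. Stc2, a secreted stress protein, had 35.6 and 40.7 CPM against 0 UMIs, at least 2.01-fold higher. It was also higher in the lymph node (87.5 CPM) than in VQ marrow (log2 fold change 1.22, SE 0.31, adjusted p = 0.00475). Pmaip1, which encodes the pro-apoptotic protein NOXA, was lower there (83.8 CPM in the VQ lymph node against 145 and 167 CPM in VQ marrow, log2 fold change -0.87, SE 0.23, adjusted p = 0.00707). Eif2b1, a subunit of the factor that eIF2 phosphorylation inhibits, had 113 and 111 CPM in VQ marrow against 18.5 CPM, or 3 UMIs, in wild-type marrow, a ratio of 6.07 (counting interval 2.04 to 29.7). In the lymph node 6 rose, and Eif2ak3, the kinase PERK, fell (60 CPM in the VQ lymph node against 142 CPM in wild-type marrow, adjusted p = 0.0106).

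Of 13 tested enzymes of one-carbon, folate and glycine metabolism outside the members, 7 rose in VQ marrow and 0 fell (7 at an unadjusted p under 0.05, and 0 by DESeq2), with a median log2 fold change of 2.16. DESeq2 gave no adjusted p for 5 of these 13. Tyms, which makes thymidylate, and Mtr, the methionine synthase, each had 1 UMI in wild-type marrow. Their ratios were 8.12 (1.41 to 325) and 6.91 (1.2 to 277). Of 10 further cytosolic synthetases and complex partners, 6 rose and 0 fell (7 at an unadjusted p under 0.05, and 0 by DESeq2), where 17.7% of all genes were called higher. Aimp2, a scaffold of the multi-synthetase complex, had the largest log2 fold change of these 6 (2.67, SE 0.72, adjusted p = 0.00182), with 75.1 and 88.2 CPM in VQ marrow against 12.3 CPM, or 2 UMIs, in wild-type marrow.

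Of 13 tested mitochondrial synthetases, 2 rose, Tars2 and Iars2, and 0 fell (4 at an unadjusted p under 0.05, and 0 by DESeq2). DESeq2 gave no adjusted p for 11 of these 13, so its 0 says little about them. Of 11 tested further amino acid transporters, 2 rose and 2 fell. Over all genes, 17.7% were called higher and 12% lower, and nothing particular to either list is read from these counts. Slc16a10, a carrier of aromatic amino acids, had 29.8 and 40.7 CPM in VQ marrow and 0 UMIs in wild-type marrow, at least 1.79-fold higher. Slc38a1 had 6.74 and 2.26 CPM in VQ marrow against 49.2 CPM in wild-type marrow (log2 fold change -3.17, SE 1.01, adjusted p = 0.00855). Slc43a2 had 14.4 and 29.4 against 73.9 CPM (-1.93, SE 0.59, adjusted p = 0.00622). Slc7a6, a light chain that pairs with Slc3a2, was higher in the lymph node than in VQ marrow, at 124 CPM in the VQ lymph node against 69.3 and 72.4 CPM in VQ marrow (adjusted p = 0.0282).

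Dividing cells moved with the enzymes. The summed level of 14 mitotic genes was 1796 and 1704 CPM in VQ marrow and 1626 CPM in the VQ lymph node, against 73.86 CPM in wild-type marrow, where 5 of the 14 had a UMI. Without cells that held at least 2 UMIs of these genes, 65, 66 and 59 VQ cells and 105 wild-type cells were left, holding 172919, 92729, 171600 and 159047 UMIs. Then, of 33 members tested, 4 were called higher in VQ marrow (Shmt1, Psat1, Wars and Kars) and 3 lower (Slc3a2, Ppp1r15a and Atf5). Over all 4753 genes tested, 534 were called higher and 383 lower. Both member counts are near those shares, and nothing particular to the members is read from them. Psat1 had a log2 fold change of 1.78 (adjusted p = 0.00421) in those cells. The other 8 members that rose lost their call, with positive log2 fold changes of 0.59 for Shmt2, 0.98 for Mthfd1, 0.22 for Mthfd2, 0.99 for Psph, 1.02 for Slc7a5, 0.66 for Slc7a1, 0.54 for Gars and 0.88 for Sars. Ddit3 (-4.48, adjusted p = 0.054) and Atf4 lost theirs as well. These sums hold fewer VQ UMIs, and the VQ cells left were shallower, with a median of 1695, 1153 and 2834 UMIs per cell. The part of either in the lost calls was not tested.

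**Figure D4:**
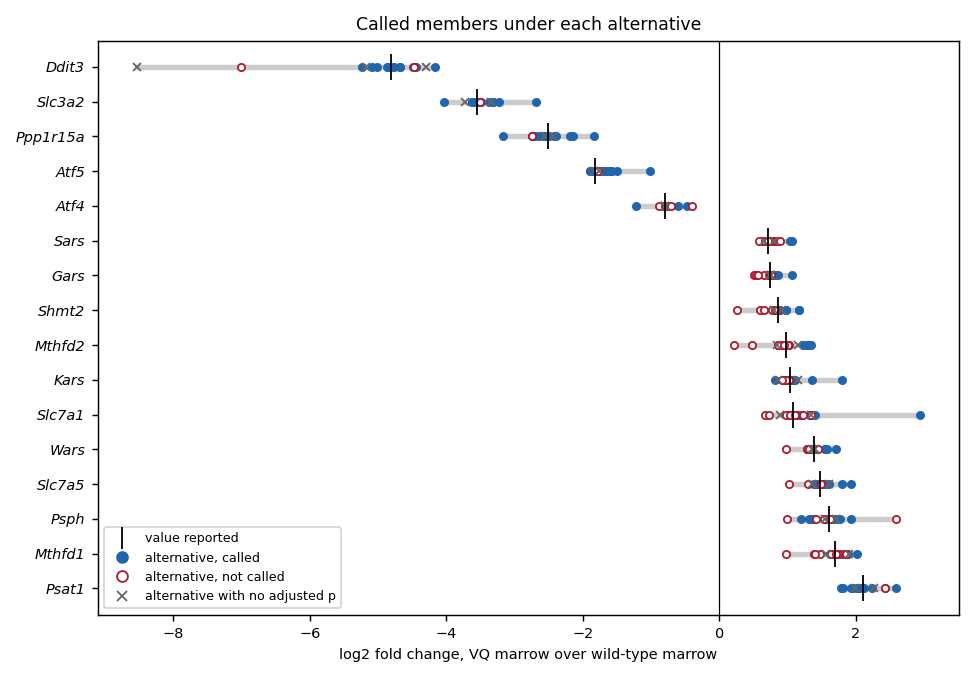
Log2 fold change of VQ marrow over wild-type marrow for the 16 called members with UMIs in both groups: the black tick is the value reported, filled circles are alternatives in which the call held, open circles those in which it was lost and crosses those without an adjusted p. Slc3a2 runs from -4.03 to -2.68 and Psat1 from 1.78 to 2.59, and no called member crosses 0.

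Most calls with small differences were not stable, and a few were. Of 17 alternatives with a test in VQ marrow, Slc3a2, Psat1, Shmt1, Atf5 and Ppp1r15a kept their call in 16 each and lost it in the sums thinned to the wild-type depth, where 0 of 4728 genes were called higher or lower and 1575 had an unadjusted p under 0.05. Kars and Slc7a5 kept theirs in 13, Psph and Atf4 in 12, Wars in 11, Shmt2 in 10, Slc7a1 in 8, Gars in 7, Mthfd1 and Mthfd2 in 6 and Sars in 3. Ddit3 kept its call in 13 of 15. Of 13 alternatives with a test in the lymph node, Slc3a2, Shmt1 and Ppp1r15a kept their call in 12 each and Psat1 in 10. Atf5 kept its lymph node call in 8, Atf4 in 7, Phgdh in 5 and Wars and Gars in 3 each. Without VQ marrow replicate 1 the log2 fold change of Slc3a2 was -3.34 and without replicate 2 it was -3.73, with no residual degree of freedom for a test. With the lymph node in 1 group with VQ marrow, a choice made after seeing the data, 10 members were higher, and Sars and Mthfd2 were no longer called. From that group of 3 libraries, leaving out VQ marrow replicate 1 also ended the calls of Kars, Gars and Wars, and leaving out replicate 2 also ended those of Slc7a1, Shmt2, Mthfd1, Gars and Wars. The calls of Slc3a2, Atf4, Atf5, Ddit3, Ppp1r15a, Psat1, Psph, Shmt1 and Slc7a5 held both times.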

How the data were processed

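The authors deposited raw UMI counts per gene and cell, 1 table per library, with no scaling. Per the labels' protocols, cells were isolated on the Bio-Rad ddSEQ instrument and libraries made with the Illumina SureCell 3′ kit. Reads were placed on mm10, per the submitters' processing notes, and the aligner, counting tool and strand setting are not given in the sources used here. The members, gene lists and tests were chosen with earlier results of these data known. All 38 members are named. From other lists, at most the 3 called genes with the largest absolute log2 fold change were named per comparison (Eif2ak3 was named after its values were seen, and 1 gene that the rule names is not reported here).

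Counts were summed per library over the kept cells, Jchain was removed, and the total of what was left was the library size. edgeR 4.0.16 in R 4.3.3 (filterByExpr, quasi-likelihood test) fitted 3 group means to the 4 sums, with 1 residual degree of freedom, from the VQ marrow pair. The single libraries are thus assumed to vary like that pair. A chi-square test of the pair over 9020 genes with at least 10 UMIs gave a statistic of 1.57 per degree of freedom (p = 1.78e-235, asymptotic), more than counting noise gives. Both were used as labelled, as 2 libraries, which does not show that they come from separate animals. The common biological coefficient of variation was 0.0919. Jchain-high and Jchain-low sums of VQ marrow were fitted with library as a block. The script was tested on simulated data. Count ratios have exact 95% conditional intervals and levels exact Poisson intervals. Alternatives used DESeq2 1.42.0, other scalings, filters, Jchain limits and cells. In counts of DESeq2 calls, a gene without an adjusted p counted as not called. Doublets were not called. Coordinates of overlapping genes came from GENCODE vM21, in which 10 of the 38 members share exon bases with another measured gene (Atf5, Ddit3, Mars, Ppp1r15a, Psph, Shmt1, Shmt2, Aars, Yars and Hars).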

Additional observations from a re-analysis of the deposited data

How the results depend on the processing

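The count of members called depended on the setting more than their direction did: no called member changed sign under any alternative run. In VQ marrow against wild-type marrow, where 12 members were higher and 5 lower, the higher count was 7 with a Jchain limit of 2%, 3 with DESeq2, 2 with a preset coefficient of variation of 0.3, 0 in thinned sums, 4 without mitotic cells and 4 without wild-type cells holding MHC class II UMIs. The higher count was 8 with a Jchain limit of 10% and 8 without heat shock cells. It was also 8 with only the wild-type cells holding MHC class II UMIs, a setting not planned. The lower count was 3 with DESeq2, 0 in thinned sums and 3 without mitotic cells. With the lymph node in 1 group with VQ marrow, a choice made after seeing the data, the higher count was 10, and leaving out VQ marrow replicate 1 or 2 from that group gave 7 and 5. In the VQ lymph node against wild-type marrow, with 11 higher and 5 lower, the higher count was 7 with a Jchain limit of 2% and of 10%, 1 with DESeq2, 1 with the preset coefficient, 0 in thinned sums, 4 without mitotic cells and 5 without the MHC class II cells. Without a filter the higher count there was 8, and without heat shock cells it was 9. The lower count there was 3 with all cells, 2 with DESeq2, 3 with the preset coefficient, 0 in thinned sums and 3 without the MHC class II cells. Some settings raised the higher count. Totals that include Jchain gave 17 in VQ marrow and 15 in the lymph node, and all cells gave 14 in the lymph node. In Jchain-high against Jchain-low cells, with 2 higher and 0 lower, the higher count was 1 with Jchain limits of 2% and 10%, TMM, totals with Jchain, DESeq2 and no filter, and TMM called 1 lower (Psat1). The causes were not tested. The prior degrees of freedom behind the test were infinite in the reported fit, 5.57 with all cells, 6.09 at the 2% limit, 15.2 at 10% and 1.25 in thinned sums. Over all genes, DESeq2 called 249 higher and 243 lower in VQ marrow, against 1488 and 1012 with edgeR. With totals that include Jchain the split was 2142 and 713.

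No paired analysis was possible because only VQ marrow has numbered replicates. For Jchain-high against Jchain-low cells, where each library gives both sums, the fit with no replicate block called 2 members higher and 0 lower, and changed no call among the members. The 162471 UMIs of wild-type marrow limit what can be seen: a member at 0 there may stand at up to 18.5 CPM.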
